A study of Homo sapiens with 4 samples.

Results

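Skipped-exon events were described here for 10 receptor tyrosine kinases, EGFR, ERBB2, ERBB3, INSR, IGF1R, MET, AXL, MERTK, FGFR1 and PDGFRB. An event joins a middle exon to the exons on either side of it. An event was taken as a member where its middle exon lay inside one of these genes on the same strand in GENCODE release 29. The rule found 34 of 44447 listed events, with 30 of 37641 distinct middle exons, in 9 of the 10 genes. ERBB3 had no listed event in either line, so its exons were not measured here. FGFR1 held 15 events, ERBB2 and MET 5 each, MERTK 3, IGF1R 2, and EGFR, INSR, AXL and PDGFRB 1 each. All 34 events were listed in both lines, all lay in a single gene, and all 30 middle exons matched an annotated exon exactly. Of these exons 19 were fully coding, 6 were partly coding and 5 were untranslated or non-coding in the transcripts that carry them.

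MDA-LM2 is a highly lung-metastatic derivative of MDA-MB-231, an established human triple-negative breast cancer cell line, and the MDA-MB-231 parental line is the one it came from. Both were untreated cultures in the same DMEM-based medium, with 2 RNA samples each, and the labels do not say whether these came from separate cultures. The deposited tables give 1 set of values per line and name no replicate, so each line is treated as 1 pooled library and no replicate error can be given. Differences between the lines therefore have no p-value, and all intervals of reads cover counting error only. In bulk RNA, fewer expressing cells and less RNA per cell cannot be told apart.

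Receptor tyrosine kinases are cell surface proteins that bind a growth factor outside the cell and phosphorylate tyrosines inside it. The phosphotyrosines recruit adaptor proteins, which pass the signal to the RAS-MAPK and PI3K-AKT pathways. Several of these receptors are made in alternative forms that differ by a skipped exon, and such forms can bind other ligands, lose a site for a ubiquitin ligase or lack an extracellular domain. In breast cancer EGFR, ERBB2, MET and AXL are studied as drivers of growth and spread.

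The exons below are shown because they are known alternative or cancer-linked exons, or carry the only receptor event of their gene, and because the inclusion results turn on them. Each sequence is given 5′ to 3′ in the sense of the gene, from the GENCODE release 29 transcript sequences (GRCh38). Capitals mark the exon, or for the last entry the stretch between both acceptor sites of MET exon 10, and the 15 lower-case bases on each side are the neighbouring transcript sequence. All 6 stretches are coding and have a length divisible by 3.
AXL exon 10, 27 nt, chr19:41239694-41239720, plus strand: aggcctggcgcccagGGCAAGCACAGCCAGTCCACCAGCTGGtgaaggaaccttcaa
INSR exon 11, 36 nt, chr19:7150497-7150532, minus strand: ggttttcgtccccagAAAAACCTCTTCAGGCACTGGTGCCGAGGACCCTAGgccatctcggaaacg
ERBB2 exon 16, 48 nt, chr17:39719787-39719834, plus strand: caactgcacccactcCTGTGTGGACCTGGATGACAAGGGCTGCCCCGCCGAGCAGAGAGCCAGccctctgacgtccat
EGFR exon 4, chr7:55146606-55146740, plus strand: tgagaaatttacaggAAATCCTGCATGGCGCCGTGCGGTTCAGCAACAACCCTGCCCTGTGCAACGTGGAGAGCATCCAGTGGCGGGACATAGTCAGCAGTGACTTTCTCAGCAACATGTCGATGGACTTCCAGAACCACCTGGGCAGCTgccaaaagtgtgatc
MET exon 14, chr7:116771849-116771989, plus strand: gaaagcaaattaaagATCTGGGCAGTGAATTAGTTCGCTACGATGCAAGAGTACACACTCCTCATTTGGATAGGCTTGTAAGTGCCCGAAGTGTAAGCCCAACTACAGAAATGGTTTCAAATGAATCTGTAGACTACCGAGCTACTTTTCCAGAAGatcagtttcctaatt
MET exon 10, first 54 nt of the longer form, chr7:116759337-116759390, plus strand: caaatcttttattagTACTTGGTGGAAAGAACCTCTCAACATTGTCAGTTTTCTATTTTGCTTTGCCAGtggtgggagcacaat

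GC content was 66.7% in the AXL and ERBB2 exons, 57.0% in the EGFR exon, 55.6% in the INSR exon, 44.0% in MET exon 14 and 38.9% in the MET exon 10 stretch. Reads at an event fall into 4 classes, which fit the isoform with the exon (inclusion reads), the isoform without it (exclusion reads), both, or neither. Event reads are the first 3 classes together, and informative reads are inclusion plus exclusion reads. The MDA-LM2 table held 17366605 event reads over 39981 events and that of the parental line held 21716937 over 43626 events, in which a read is counted again in each event it overlaps. The receptor events held 27862 event reads in MDA-LM2 and 30868 in the parental line, of which 10449 and 9659 were informative. For marker genes, CD44 had 38259 in MDA-LM2 against 54542, FN1 1390 against 2350, ZEB1 580 against 1225 and KRT8 6187 against 5877 in the parental line. Reads were near 0 for CDH1 (11 in MDA-LM2, 13 in the parental line), ESRP1 (3 and 8), ESR1 (1 and 1), SPARC (1 and 1) and the leukocyte gene PTPRC (5 and 2). The other 11 of 20 markers had no event to compare.

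AXL and MET had the highest median event read density of the receptors in both lines. Density is event reads in each 1000000 event reads of the line, per kb of the 3 exons of the event, and is the scale on which genes are set side by side. AXL, a receptor of the TAM family that binds GAS6, stood at 534 in MDA-LM2 and 580 in the parental line at its only event. MET, the receptor of hepatocyte growth factor, had a median over its 5 exons of 172 in MDA-LM2 (range 146 to 225) and 116 in the parental line (101 to 160). In MDA-LM2 the order then ran EGFR (133, 1 exon), MERTK (median 99.8, range 7.71 to 103), FGFR1 (49.8, 19.6 to 149), IGF1R (14.8, 8.55 to 21.0), ERBB2 (5.08, 2.76 to 14.6), INSR (3.70, 1 exon) and PDGFRB (0.415, 1 exon). In the parental line it ran FGFR1 (72.6, 29.1 to 186), EGFR (64.0), MERTK (27.2, 2.87 to 28.3), INSR (18.2), ERBB2 (14.6, 6.0 to 43.5), IGF1R (12.3, 5.82 to 18.8) and PDGFRB (2.82).

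AXL lay above the range of MET in both lines. The range over FGFR1 exons held the values of EGFR and of MERTK exon 2 in MDA-LM2, and those of EGFR and MET's median in the parental line, so these neighbours were not separated beyond the spread between exons. INSR, ERBB2 and IGF1R likewise overlapped in the parental line. PDGFRB, a receptor typical of mesenchymal and perivascular cells, was lowest in both lines by event reads. In reads not divided by length, that place depends on the read class. With reads that fit neither isoform added, PDGFRB had 600 reads in MDA-LM2 and 1033 in the parental line. INSR then had fewer (99 and 526), as did ERBB2 (291 and 894). These events differ in length, at 833 nt for PDGFRB, 513 nt for INSR and 606 nt for ERBB2. The order per kb with all read classes was not computed.

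**Figure D1:**
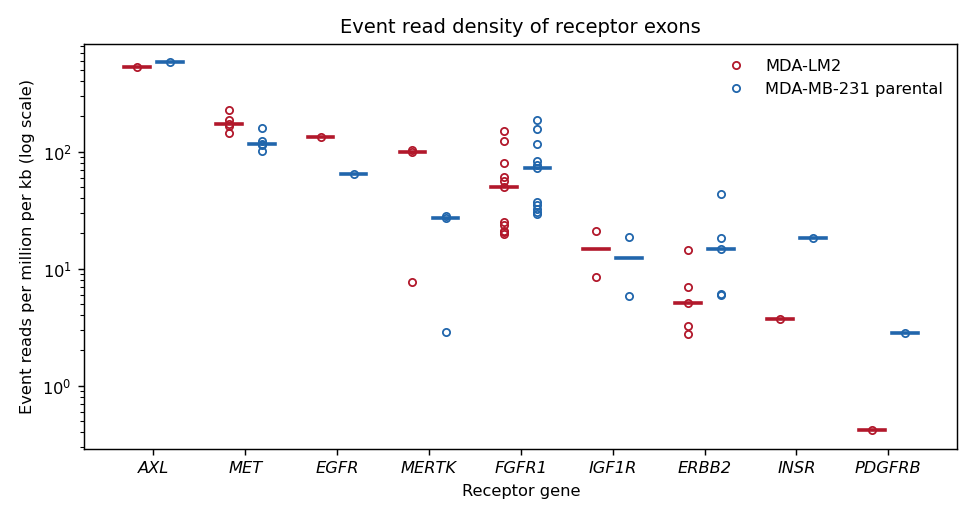
Event read density (density as defined in the text, log axis) of each distinct receptor exon as open circles, with the median as a bar, in MDA-LM2 (left of each pair) and the MDA-MB-231 parental line (right). By the median over exons AXL and MET are highest in both lines, while FGFR1 exons in the parental line reach 186, above every MET exon. By the same medians, and at any size of difference, MERTK, EGFR, MET and IGF1R are higher and INSR, ERBB2, PDGFRB, FGFR1 and AXL lower in MDA-LM2.

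Event reads of MERTK and EGFR were at least 2-fold higher in MDA-LM2, and those of ERBB2, INSR and PDGFRB at least 2-fold lower. A gene was called at its best covered event where the ratio of MDA-LM2 to the parental line, each scaled to its line's total, was at least 2-fold and the exact 95% interval left out 1. Of 10137 genes measured this way 3.21% were called higher and 8.43% lower, and of 9 receptors 2 were higher and 3 lower. The median ratio over all genes was 0.906, or -0.14 on the log2 scale, and that of the receptors was -0.12. Relative to the median gene the same numbers of receptors were called, 2 and 3.

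In the ERBB family, EGFR, the receptor of EGF and related ligands, had 897 event reads in MDA-LM2 and 539 in the parental line at exon 4. The ratio was 2.08 (1.87 to 2.32). With informative reads alone, 384 in MDA-LM2 and 244 in the parental line, it was 1.84 (1.57 to 2.17), which is short of the 2-fold limit. ERBB2 (HER2), the co-receptor that has no known ligand, had 170 event reads in MDA-LM2 and 567 in the parental line at its best covered event, around exon 26, a ratio of 0.375 (0.314 to 0.446). The other ERBB2 events had 88 in MDA-LM2 against 329 in the parental line (exon 16), 29 against 79 (exon 2), 18 against 101 (a 117-nt exon) and 35 against 52 (a 51-nt exon). Their ratios ran 0.223 to 0.842, all below 1, and the interval of the 51-nt event (0.532 to 1.32) held 1.

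In the insulin receptor family, INSR had 33 event reads in MDA-LM2 and 203 in the parental line, a ratio of 0.203 (0.136 to 0.295). IGF1R, its close relative, had 150 in MDA-LM2 and 168 in the parental line at exon 16, a ratio of 1.12 (0.890 to 1.40). The interval of this event held 1. The 63-nt IGF1R event, with 67 event reads in MDA-LM2 and 57 in the parental line, all fitting both isoforms, had a ratio of 1.47 (1.02 to 2.13), which left out 1. With all 4 read classes that event was the best covered, and the ratio was 1.53 (1.46 to 1.59).

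MET had 4766 event reads in MDA-LM2 and 3959 in the parental line at exon 2, a ratio of 1.51 (1.44 to 1.57). All 5 MET events were higher in MDA-LM2, with ratios of 1.41 to 1.51, and none reached 2-fold. The 50-nt and 1214-nt events share exon 2, and the 100-nt and 154-nt events share both flanks, so their reads are counted in part more than once.

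In the TAM family, MERTK, a receptor of GAS6 and protein S, had 1222 event reads in MDA-LM2 and 433 in the parental line at its 421-nt exon 2. The ratio was 3.53 (3.16 to 3.95), above that of every other receptor measured. A 185-nt form of exon 2 gave 837 in MDA-LM2 against 277 in the parental line (ratio 3.78) and a 51-nt exon further downstream 43 against 20 (2.69, 1.55 to 4.82). The 185-nt and 421-nt events share both flanks and therefore reads, so their ratios are not separate measurements. AXL had 2883 event reads in MDA-LM2 and 3916 in the parental line, a ratio of 0.921 (0.877 to 0.966). That direction rests on the scaling and the read class: it was 1.02 (0.968 to 1.07) relative to the median gene and 1.43 (1.21 to 1.68) with informative reads alone.

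FGFR1, a receptor of fibroblast growth factors, had 1396 event reads in MDA-LM2 and 2178 in the parental line, a ratio of 0.802 (0.749 to 0.858). All 15 of its events were lower in MDA-LM2, with ratios of 0.512 to 0.866, and none reached 2-fold. Many of these events share flanking exons and therefore reads. PDGFRB had 6 event reads in MDA-LM2 and 51 in the parental line, all but 3 of them in the class that fits both isoforms, a ratio of 0.147 (0.0516 to 0.343). With all 4 classes, 600 reads in MDA-LM2 and 1033 in the parental line, the ratio was 0.755 (0.682 to 0.836), and the call was lost.

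**Figure D2:**
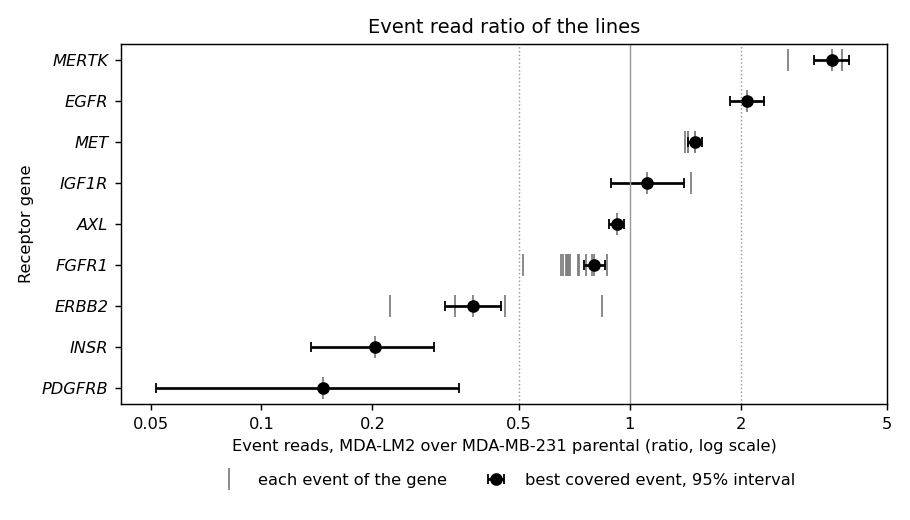
Ratio of event reads in MDA-LM2 over the MDA-MB-231 parental line (log axis) for each receptor, with black points for the best covered event and its exact 95% interval of counting error, and grey marks for each event of the gene. Dotted lines mark 2-fold; MERTK (3.53) and EGFR (2.08) lie past it on the higher side and ERBB2 (0.375), INSR (0.203) and PDGFRB (0.147) on the lower side.

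No tested receptor exon passed the call rule for a difference in inclusion between the lines. The deposited inclusion level is the mean that MISO gives for the share of isoforms with the exon, between 0 and 1. An exon was called where the Bayes factor of the authors' deposited table was at least 10 and the difference (MDA-LM2 minus parental) at least 0.2 in size, with at least 10 informative reads in each line. Of 14109 exons that could be tested in the whole series 1.25% were called, and none of the 10 receptor exons tested, in 7 receptors, was. With a Bayes factor of at least 10 at any difference, a limit chosen after the data were seen, 2.59% of all exons and 1 of the 10 receptor exons passed, in AXL. The median size of the difference was 0.02 over the receptor exons tested and 0.02 over all exons tested. Over all 34 events the median size was 0.03, and the largest difference, 0.32 at the 51-nt ERBB2 exon, rested on 4 informative reads in MDA-LM2 and 3 in the parental line.

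The 27-nt exon 10 of AXL, shown above, encodes a stretch outside the membrane between the fibronectin-like domains and the transmembrane segment, and AXL is made with and without it. Its deposited level was 0.20 (interval 0.17 to 0.24) in MDA-LM2 and 0.13 (0.10 to 0.16) in the parental line, and the authors' deposited table lists a Bayes factor of 14.75. Its deposited intervals in the lines did not overlap, and how often that holds over all events of the series was not counted. The reads that tell the isoforms apart were 123 inclusion and 203 exclusion reads in MDA-LM2, against 89 and 179 in the parental line. Inclusion reads were 37.7% of informative reads in MDA-LM2 (exact Clopper-Pearson 95% interval 32.5 to 43.2) and 33.2% in the parental line (27.6 to 39.2). The ratio of the odds of inclusion was 1.22 with an exact 95% interval of 0.857 to 1.74, which holds 1. Reads that fit both isoforms, which enter the deposited level and not this ratio, were 2557 in MDA-LM2 and 3648 in the parental line, or 7.84 and 13.6 per informative read. In both lines the level was below 0.5 and exclusion reads outnumbered inclusion reads.

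The 36-nt exon 11 of INSR separates the B form of the insulin receptor, which includes it, from the A form, which binds IGF2 well. The deposited level was 0.20 (0.07 to 0.39) in MDA-LM2 and 0.22 (0.15 to 0.31) in the parental line. Reads were 2 inclusion and 11 exclusion in MDA-LM2, against 23 and 71 in the parental line, so that 15.4% (1.92 to 45.5) and 24.5% (16.2 to 34.4) were inclusion reads. Exclusion reads were the larger class in both lines, which is the A form. The odds ratio of 0.564 had an interval of 0.0567 to 2.88, and a difference was not detectable with 13 informative reads in MDA-LM2.

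Exon 4 of EGFR, in the extracellular domain, was at 0.90 (0.81 to 0.97) in MDA-LM2 and 0.95 (0.84 to 0.99) in the parental line. It had 382 inclusion and 2 exclusion reads in MDA-LM2, against 244 and 0 in the parental line, where a count of 0 allows an exclusion share of up to 1.23%. In ERBB2, exon 16 encodes part of the juxtamembrane extracellular region, and its loss gives an oncogenic form. Its level was 0.60 (0.30 to 0.95) in MDA-LM2 and 0.66 (0.47 to 0.84) in the parental line. There were 9 inclusion reads in MDA-LM2 and 40 in the parental line and 0 exclusion reads in either, which allows an exclusion share of up to 33.3% in MDA-LM2 and 7.5% in the parental line. Exon 26 was at 0.72 (0.47 to 0.98) in MDA-LM2 and 0.80 (0.62 to 0.98) in the parental line, with 24 and 89 inclusion reads and 0 exclusion reads. A 117-nt coding exon found in 1 annotated transcript had 0 inclusion and 11 exclusion reads in MDA-LM2 against 3 and 63 in the parental line. Its levels were 0.06 (0.00 to 0.21) in MDA-LM2 and 0.03 (0.01 to 0.06) in the parental line, and the reads allow an inclusion share of up to 28.5% in MDA-LM2 and 12.7% in the parental line.

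Exon 14 of MET encodes the juxtamembrane part that holds the binding site of the ubiquitin ligase CBL, and tumours that skip it keep the receptor longer. It was at 1.00 (0.99 to 1.00) in both lines, with 1271 inclusion reads in MDA-LM2, 1152 in the parental line and 0 exclusion reads in either. A count of 0 allows an exclusion share of up to 0.236% in MDA-LM2 and 0.260% in the parental line. Exon 2, which holds the start codon, was also at 1.00 in both lines, with 4564 inclusion and 2 exclusion reads in MDA-LM2 against 3795 and 0 in the parental line. A 50-nt exon upstream of it was at 0.02 in MDA-LM2 and 0.01 in the parental line, with 2 inclusion and 13 exclusion reads in MDA-LM2 against 0 and 20.

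Exon 10 of MET has a 100-nt and a 154-nt form, which differ by the 54 nt shown above. The 100-nt form was at 0.30 (0.25 to 0.36) in MDA-LM2 and 0.36 (0.30 to 0.43) in the parental line, and the 154-nt form at 0.13 (0.11 to 0.17) and 0.17 (0.14 to 0.21). Neither event had an exclusion read, with 124 inclusion reads in MDA-LM2 and 126 in the parental line for the 100-nt form and 84 and 93 for the 154-nt form. The 100-nt form thus had 40 more inclusion reads in MDA-LM2 and 33 more in the parental line. These levels below 0.5 therefore stand beside 0 reads across the skipping junction.

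Both forms of MERTK exon 2 were at 0.99 to 1.00 in each line, with 0 exclusion reads. The forms share their start and both flanks, and so part of their reads. Each level sets its form against skipping only, so these levels do not give the share of either form. The 421-nt form, at chr2:111929120-111929540 on the plus strand, had 1080 inclusion reads in MDA-LM2 and 389 in the parental line, and the 185-nt form 695 and 233. The 51-nt exon had 0 inclusion reads in either line, with 13 exclusion reads in MDA-LM2 and 5 in the parental line (levels 0.04 and 0.11). Exon 16 of IGF1R, at chr15:98934824-98935053 on the plus strand, was at 0.97 (0.91 to 1.00) in MDA-LM2 and 0.95 (0.89 to 0.99) in the parental line, with 142 inclusion and 0 exclusion reads in MDA-LM2 against 158 and 1. The 63-nt IGF1R exon, of a non-coding transcript, had no informative read in either line. The 46-nt exon 2 of PDGFRB, at chr5:150137008-150137053 on the minus strand and partly coding, had no informative read in MDA-LM2 and 3 inclusion reads in the parental line, and its deposited intervals of 0.17 to 0.95 and 0.28 to 1.00 span most of the range.

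**Figure D3:**
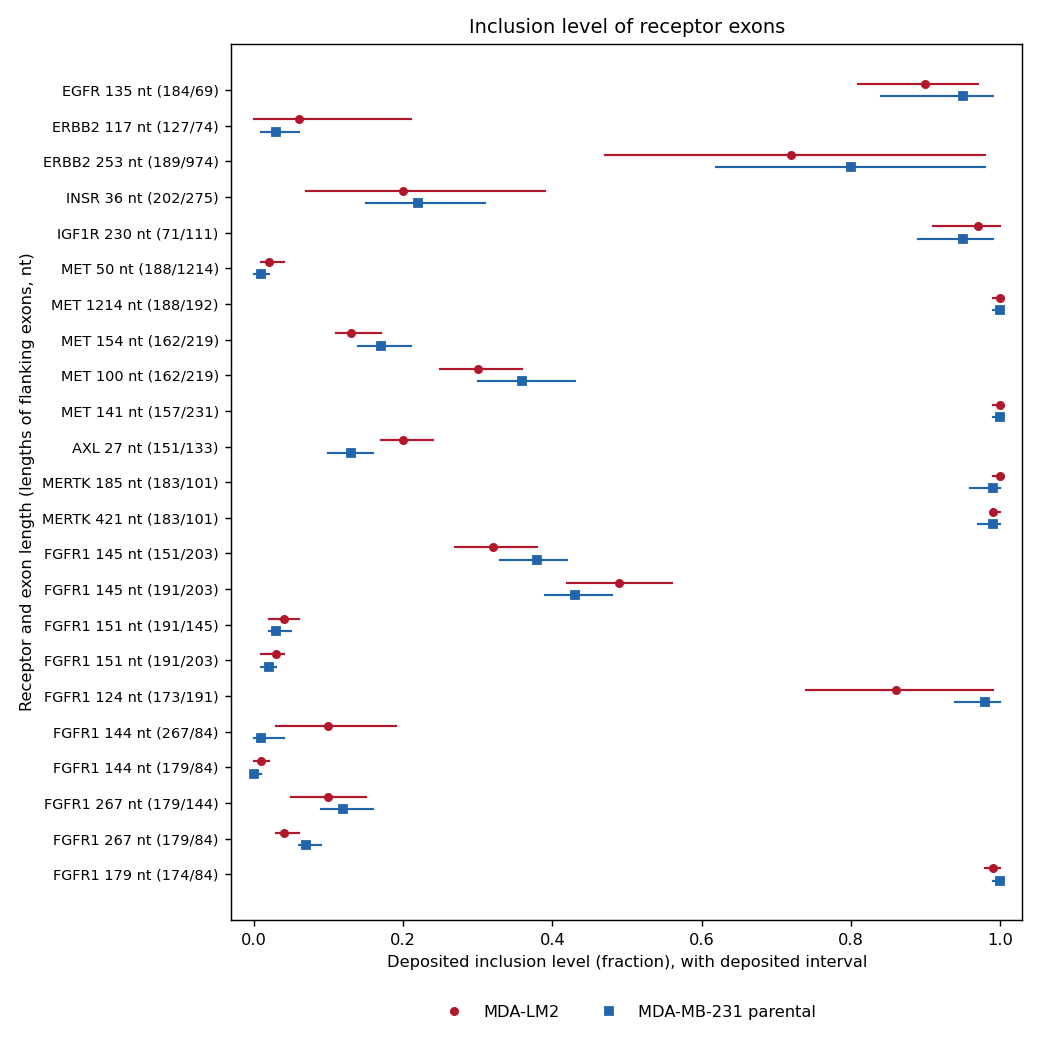
Deposited inclusion level (fraction, 0 to 1) with its deposited interval for the 23 receptor events with at least 10 informative reads in each line, with circles for MDA-LM2 above squares for the MDA-MB-231 parental line. The intervals of the lines overlap in every event shown but the 27-nt AXL exon.

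FGFR1 had the most alternative exons of the receptors. The immunoglobulin-like domain nearest the membrane ends in either the IIIb or the IIIc exon, which set the ligands the receptor binds, and the domain nearest the start of the protein is encoded by the alpha exon. The alpha exon lies at chr8:38429682-38429948 on the minus strand (GRCh38) and is annotated as exon 3. With flanks of 179 and 84 nt its level was 0.04 (0.03 to 0.06) in MDA-LM2 and 0.07 (0.06 to 0.09) in the parental line, and the authors' deposited table lists a Bayes factor of 1.76. Reads were 35 inclusion and 236 exclusion in MDA-LM2, against 106 and 382 in the parental line, so inclusion reads were 12.9% (9.16 to 17.5) and 21.7% (18.1 to 25.7) of informative reads. The odds ratio was 0.535 with an exact 95% interval of 0.342 to 0.821, which leaves out 1. Most FGFR1 informative reads at this exon, in both lines, were of the form that lacks it.

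A 144-nt exon of transcripts marked for nonsense-mediated decay lies just downstream of the alpha exon. Where the flank was the alpha exon, it had 4 inclusion and 19 exclusion reads in MDA-LM2 against 1 and 65 in the parental line, and levels of 0.10 (0.03 to 0.19) and 0.01 (0.00 to 0.04). The odds ratio was 13.2 with an interval of 1.21 to 684, resting on 5 inclusion reads in all. With the 179-nt flank its level was 0.01 in MDA-LM2 and 0.00 in the parental line, from 3 and 1 inclusion reads beside 236 and 382 exclusion reads, and the odds ratio interval of 0.386 to 256 held 1. Of 13 receptor events that gave an odds ratio interval, 2 left out 1, the alpha exon and the 144-nt event flanked by it. No adjustment was made for the number of intervals, and the share over all events of the series was not computed. Both events use the junction from the alpha exon to the 84-nt exon, so they share reads.

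The 151-nt IIIb exon of FGFR1 was mostly skipped in favour of IIIc. In the event that ends in the IIIc exon it had 13 inclusion and 105 exclusion reads in MDA-LM2 against 13 and 79 in the parental line, with levels of 0.04 (0.02 to 0.06) and 0.03 (0.02 to 0.05). Inclusion reads were 11% (6.0 to 18.1) of informative reads in MDA-LM2 and 14.1% (7.74 to 23.0) in the parental line, and the odds ratio of 0.753 (0.303 to 1.87) held 1. The 145-nt IIIc exon had 252 inclusion reads in MDA-LM2 and 356 in the parental line with 0 exclusion reads in either, at levels of 0.49 (0.42 to 0.56) and 0.43 (0.39 to 0.48). With the IIIb exon as its flank the levels were 0.32 (0.27 to 0.38) in MDA-LM2 and 0.38 (0.33 to 0.42) in the parental line, the opposite order. The 124-nt exon 6 was at 0.86 (0.74 to 0.99) in MDA-LM2 and 0.98 (0.94 to 1.00) in the parental line, with 186 and 431 inclusion reads and 0 exclusion reads. Exon 2, of 179 nt, was at 0.99 in MDA-LM2 and 1.00 in the parental line, with 409 and 704 inclusion reads and 0 exclusion reads. The remaining 5 FGFR1 exons, 4 of them upstream of exon 2, had levels of 0.01 to 0.05 and at most 3 inclusion reads in either line.

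**Figure D4:**
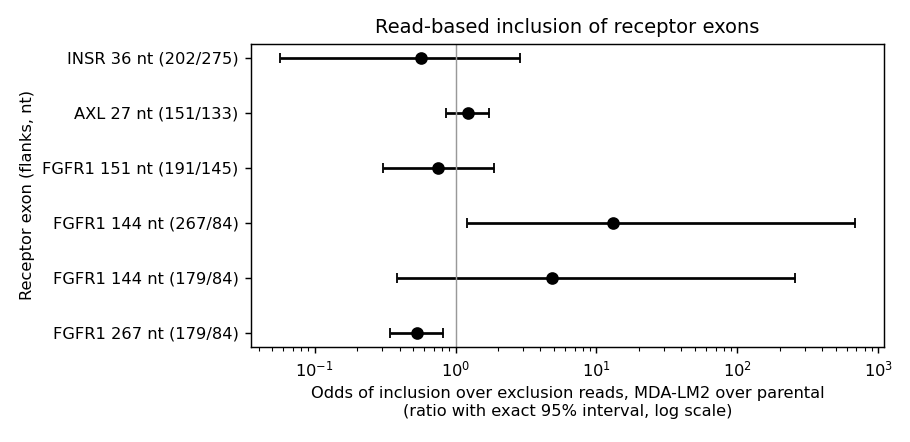
Odds ratio of inclusion to exclusion reads, MDA-LM2 over the MDA-MB-231 parental line (log axis), with its exact 95% interval, for the 6 receptor events with both kinds of reads in both lines. The interval of the FGFR1 alpha exon, in the lowest row (0.342 to 0.821) and that of the 144-nt exon flanked by it (1.21 to 684) leave out 1, and that of the AXL exon (0.857 to 1.74) holds it.

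Across receptors, 20 of the 34 events had no exclusion read in either line. Their deposited levels were over 0.9 in both lines in 4 events, under 0.5 in both lines in 11, and 0.5 to 0.9 in at least 1 line in the other 5. Of these 20 events only 12 had at least 10 informative reads in each line. Among the 11, the 63-nt IGF1R and 48-nt FGFR1 events had 0 informative reads in either line. The 123-nt, 138-nt and 160-nt FGFR1 events had 1 to 3, so few reads could show skipping there. A deposited level under 0.5 at a receptor exon thus did not always go with reads across the skipping junction, and what set the level there was not tested. Where both kinds of reads were present in both lines, the form without the exon had most informative reads at all 6 events, in INSR, AXL and FGFR1. Some of the FGFR1 events share their exclusion reads. The condition also leaves out mostly included exons with no exclusion read in 1 of the lines, such as EGFR exon 4 and MET exon 2.

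Genes that act with these receptors were described from 4 lists, of other receptor tyrosine kinases, ligands, adaptors and regulators, and downstream kinases and effectors. Of 163 listed genes 101 had event reads in both lines. By the call rule for event reads, 7 were called higher in MDA-LM2 and 6 lower, beside 3.21% called higher and 8.43% called lower of all genes. A further 4 genes were past 2-fold with an interval that held 1, NRG2 (3.75), PRKCD (0.395), STYK1 (0.447) and EGF (0.469), and were not called. The median log2 ratio of the lists was -0.16 against -0.14 over all 10137 genes. Among 12 ligands measured 3 were called higher and 2 lower, where 3.21% and 8.43% of all genes were. NRG1, a neuregulin that binds ERBB3 and ERBB4, had 6108 event reads in MDA-LM2 and 1365 in the parental line, a ratio of 5.60 (5.28 to 5.94). PDGFA, a platelet-derived growth factor, had 1632 against 706 (2.89, 2.64 to 3.16), and IGF1, a ligand of IGF1R, 273 against 152 (2.25, 1.84 to 2.76). FGF1, a ligand of the FGF receptors, was lower with 82 in MDA-LM2 against 508 (0.202, 0.158 to 0.255). PROS1, which encodes the MERTK ligand protein S, was lower with 390 against 1058 (0.461, 0.409 to 0.518), and at 0.509 relative to the median gene it was no longer called. The best covered ligand, VEGFA, was within 2-fold, with 10131 in MDA-LM2 against 11816 in the parental line (1.07, 1.04 to 1.10).

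Of 31 adaptors and regulators measured 3 were called higher and 1 lower (3.21% and 8.43% over all genes). GRB10, an adaptor that binds the insulin and IGF1 receptors, had 238 event reads in MDA-LM2 and 138 in the parental line (ratio 2.16, 1.74 to 2.68). Its relative GRB14 had 28 against 14 (2.50, 1.27 to 5.14), and SPRY1, a Sprouty inhibitor of receptor signalling, 1944 against 1137 (2.14, 1.99 to 2.30). LRIG1, a transmembrane protein that promotes the breakdown of ERBB receptors, was lower with 5 against 27 (0.232, 0.0696 to 0.610). The best covered of this list were within 2-fold. ERRFI1, an EGFR inhibitor, had 8851 in MDA-LM2 against 15052 (0.735). SPRY4 had 4418 against 6063 (0.911), and the adaptor GRB2 3085 against 3566 (1.08).

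Beside 3.21% of all genes called higher and 8.43% lower, of 39 downstream kinases and effectors 0 were called higher and 1 lower, the cytokine receptor kinase JAK1, with 11 event reads in MDA-LM2 and 36 in the parental line (0.382, 0.175 to 0.767). PTK2, which encodes focal adhesion kinase, was the best covered, with 4190 against 3755 (1.40). Of 19 other receptor tyrosine kinases, against the same shares of all genes, 1 was called higher and 2 lower. EPHA4, an ephrin receptor, had 450 event reads in MDA-LM2 and 191 in the parental line (2.95, 2.48 to 3.51), the leukocyte tyrosine kinase LTK 5 against 30 (0.208, 0.0631 to 0.543), and TEK, the angiopoietin receptor, 1 against 12 (0.104, 0.00244 to 0.704). EPHA2 had the most reads of this list, 3545 against 2998 (1.48).

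**Figure D5:**
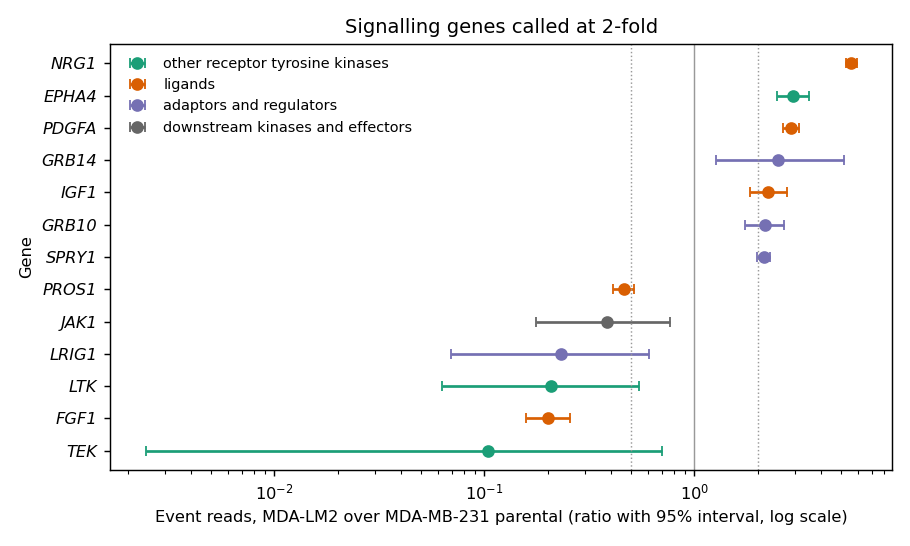
Ratio of event reads in MDA-LM2 over the MDA-MB-231 parental line (log axis), with exact 95% intervals of counting error, for the 13 called genes of the 4 signalling lists, at least 2-fold apart with an interval that leaves out 1, coloured by list. NRG1 (5.60) is highest, and the lower genes with few reads, TEK, LTK, LRIG1 and JAK1, have wide intervals.

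Exon inclusion was called at 4 of 138 tested exons of these lists, all higher in MDA-LM2, against 1.25% of all exons, of which 130 were higher and 46 lower. They lay in the ligand PDGFC (0.43 in MDA-LM2 against 0.20), the kinase RPS6KB1 (0.91 against 0.61) and at 2 exons of PTK2 (0.61 against 0.33 and 0.94 against 0.67). Exclusion reads were 8 in MDA-LM2 against 9 in the parental line for PDGFC, 1 against 3 for RPS6KB1, and 5 against 2 and 1 against 1 for PTK2. At the 89-nt PTK2 exon, with 103 inclusion reads in MDA-LM2 and 48 in the parental line, the read-based level ran the other way. That level, inclusion reads divided by 2 over the same plus exclusion reads, was 0.912 in MDA-LM2 and 0.923 in the parental line. It was 0.989 in MDA-LM2 against 0.976 at the 63-nt PTK2 exon, 0.978 against 0.929 in RPS6KB1 and 0.660 against 0.561 in PDGFC. At each of these exons the lines lay closer together than by the deposited levels. With a difference of at least 0.1, a 54-nt exon of SHC1, the adaptor that links receptors to GRB2, was lower at 0.72 (0.67 to 0.78) in MDA-LM2 against 0.85 (0.80 to 0.89). The reads there came to 321 inclusion and 47 exclusion in MDA-LM2, against 460 and 30 in the parental line.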

How the data were processed

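The submitters' processing notes name STAR 2.7 and the build hg38. Inclusion was estimated by MISO, as the columns show per the file headers. The sources used here do not give its version, its settings or how replicates were combined. For each line, the deposited tables hold the inclusion level as a fraction (posterior mean) with an interval of unstated level, and raw read counts per class, with at least 20 reads in all classes per event. The authors' deposited table of the comparison gives the difference as a score and the Bayes factor as a ratio.

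Events were parsed and intervals computed with Python 3.11.15, pandas 2.3.3 and scipy 1.17.1. Read ratios carry exact conditional binomial 95% intervals, and the interval method was tested on simulated data. Events entered the exon calls with at least 10 informative reads in each line and 1 or more of each class summed over the lines, with 1 event per exon. A count of 0 allows up to 3 reads. Genes were compared at the event with most event reads, among events in a single gene. Reads fitting neither isoform, 74.7% in MDA-LM2 and 75.7% in the parental line, were left out of event reads, and reads that several events share raise the totals.

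Named exons were each receptor's best covered exon, exons past the call rule or past it at a difference of 0.1, those with 20 informative reads in each line and a level of 0.1 to 0.9, and 4 known alternative exons. Other receptor exons are given by their values and were added after these were seen. Signalling genes were named where called, with the best covered of a list beside them. The members and lists were chosen with earlier results of these data known.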

Additional observations from a re-analysis of the deposited data

How the results depend on the processing

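No paired analysis was possible because the tables name no replicate, and for the same reason no sample could be left out. No receptor exon was called with a Bayes factor of at least 5 or 20, a difference of at least 0.1, a minimum of 20 informative reads, no minimum, or every event counted. With a Bayes factor of at least 10 at any difference, chosen after seeing the data, 1 was. Over all genes 176 of 14109 tested exons were called, against 292 of them at a difference of 0.1 and 366 at any difference. With no minimum of informative reads 290 were called, of 33165 tested. With informative reads alone 1 receptor was called higher and 2 lower, in place of 2 and 3. EGFR was then at 1.84, AXL turned to 1.43, and PDGFRB had no read in MDA-LM2, so its call was lost. AXL turned to 1.02 when scaled to the median gene. With all 4 read classes 2 receptors were lower, since PDGFRB was at 0.755, and IGF1R moved to 1.53. Summing over exons changed no receptor call. EGFR, INSR, AXL and PDGFRB have 1 event each, so the sum could not change theirs. Not dividing inclusion reads by 2 turned the direction of none of 11 read-based differences. This could not have come out otherwise, since with or without the division the level rises with inclusion reads per exclusion read. Without division by length the 3 receptors of highest density in each line were the same 3. At its only event PDGFRB had 6 event reads in MDA-LM2 and 51 in the parental line.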

Other observations

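The 63-nt IGF1R event, in a non-coding transcript, had 67 reads fitting both isoforms in MDA-LM2 and 57 in the parental line, beside 4388 and 3740 that match neither. At the PDGFRB event 594 reads in MDA-LM2 and 982 in the parental line matched neither, against 6 and 51 event reads. The deposited level of the FGFR1 IIIc exon differed by 0.06 in opposite directions with the IIIa and the IIIb exon as its flank. The Bayes factors were 0.29 and 0.25, the intervals of the lines overlapped in both events, and neither event had an exclusion read.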
